A study of Mus musculus with 14 samples.

Results

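The TIN mutant and the GLAD mutant of the telomere protein TRF1 were compared at atmospheric oxygen. The comparison used 4 of the 14 RNA sequencing libraries of the study, TIN normoxia A and B against GLAD normoxia A and B. It covered every gene with a level of at least 1 CPM, the deposited unit in which a gene's reads are scaled to the library's total, in at least 2 of the 14 libraries, which kept 16157 of 52636 genes. All libraries came from tMEF cells, which are transformed mouse embryonic fibroblasts. Their own TRF1 is described as exchanged for the naked mole rat protein or a mutant of it. Both groups therefore carry the naked mole rat protein in place of the mouse one and were grown in DEM with fetal calf serum. The GLAD mutant holds the substitutions Glu69Lys, Val70Ala and Ala75Thr, and the TIN mutant holds Ala105Thr. The other groups are the double mutant with both sets of substitutions, the unmutated naked mole rat TRF1 (wild type, normoxia only) and the 3 mutants in hypoxia at 1% oxygen. The wild-type columns are named as mouse though their titles give the naked mole rat TRF1. Which TRF1 those cells carry was not checked. Each group has 2 libraries. Nothing in the labels tells whether A and B were separate cultures. If they were not, the p-values reflect only technical spread between 2 libraries. Nor is it stated whether a mutant is more than 1 line of cells, so that the effect of a line and of its substitution cannot be told apart.

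TRF1 is a subunit of shelterin, the protein complex that coats the double-stranded repeats of telomeres, helps the replication fork through them and keeps chromosome ends from being read as breaks. The listed gene group with the lowest median in TIN belongs to another system, the interferon response. In it, type I interferons bind a receptor on the cell surface, Janus kinases pass the signal to transcription factors, and these act on short promoter elements of antiviral genes. In fibroblasts the pathway also sets the level of the class I antigen presentation genes.

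The core of that promoter element was searched as GAAANNGAAA on both strands, where N is any base and neighbouring matches may overlap. The 120 bases before the start site are shown to show the element in place. They are given for members of the interferon list that held a match there and whose chromosome was not left out of this display. Of these, the 5 with the lowest difference were taken. Lower genes of the list are not shown where they held no match there, had no window or lay on a chromosome left out. Absence here therefore does not mean that a gene held no match. Capitals mark the match, or matches where they overlap, as GAAANNGAAA or, on the other strand, TTTCNNTTTC, and every sequence is from RefSeq on GRCm38.p6, 5′ to 3′ in the direction of the gene.
Trim30a: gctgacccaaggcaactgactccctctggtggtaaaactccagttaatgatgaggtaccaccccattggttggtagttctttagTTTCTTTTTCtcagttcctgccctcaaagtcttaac
Oas1a: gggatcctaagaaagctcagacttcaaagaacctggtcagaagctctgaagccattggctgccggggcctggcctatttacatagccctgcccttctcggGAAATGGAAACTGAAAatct
Gbp7: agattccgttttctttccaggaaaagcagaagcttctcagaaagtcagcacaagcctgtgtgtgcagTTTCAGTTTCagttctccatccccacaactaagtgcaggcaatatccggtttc
Oas3: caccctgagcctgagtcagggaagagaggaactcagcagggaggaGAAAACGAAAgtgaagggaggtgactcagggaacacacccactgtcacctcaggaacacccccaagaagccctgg
Gbp3: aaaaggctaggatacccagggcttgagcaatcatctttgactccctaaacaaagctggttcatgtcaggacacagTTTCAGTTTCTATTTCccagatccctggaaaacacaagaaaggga
The Trim30a window lies at chr7:104465194-104465313 on the minus strand and the Oas1a window at chr5:120907526-120907645 on the minus strand. The Gbp7 window lies at chr3:142530216-142530335 on the plus strand, the Oas3 window at chr5:120777660-120777779 on the minus strand and the Gbp3 window at chr3:142559924-142560043 on the plus strand. Trim30a encodes a ubiquitin ligase that restrains inflammatory signalling. Oas1a and Oas3 encode enzymes that make a second messenger from double-stranded RNA, and Gbp3 and Gbp7 encode guanylate-binding GTPases that attack intracellular pathogens. In windows of 300 bases around the start, the element was found in 19 of the 31 interferon list genes with a window, or 61.3%, and in 4 of 14 class I antigen presentation genes, or 28.6%. Among all 27025 genes with a window the share was 3.99%, and among the 10918 tested genes with one it was 3.70%. The share was 10.8% of 986 genes at least 2-fold lower in TIN, 37.0% of 46 genes at least 16-fold lower, and 4.78% of 272 genes at least 2-fold higher. The lists and these groups overlap. Of the 73 genes at least 16-fold lower, with or without a window, 24 are on either list. Shares without those genes were not computed. A match is a description of the sequence and not a measured binding site.

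The 4 libraries held 12246944 to 15023557 reads as recovered from the steps of the deposited values, and a count of 0 allows up to 0.200 to 0.245 CPM, counting error only. Levels below are CPM after scaling between libraries, given for library A and then B. Differences are TIN minus GLAD on the log2(CPM + 0.5) scale, with the standard error from the model after ±. The added 0.5 makes them understate changes of low genes. Lower or higher in TIN means against GLAD and not against the wild type. The A and B libraries differed by a median of 0.076 on the log2 scale in GLAD and 0.083 in TIN over 11828 genes. Terf1, the gene that encodes TRF1, stood at 148 and 149 CPM in GLAD and 186 and 179 CPM in TIN, a difference of 0.30 ± 0.083 (adjusted p = 5.7e-03) that loses its call without TIN library A (adjusted p = 0.052). Gene counts cannot tell the mouse from the naked mole rat transcript, so this does not check the exchange. Of the markers of the labelled cell type, the type I collagens and Vim were abundant in all 4 libraries, but the fibroblast surface marker Thy1 was at or under the floor in all 4 libraries and Fap had under 1 CPM.

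Of the 16157 genes, 8356 passed an adjusted p of 0.05 in limma, or 51.7%, so a call alone is common here and sizes are given throughout. The calls split into 4458 genes higher in TIN, 27.6% of those tested, and 3898 lower, 24.1%. Which direction had more calls depended on the scaling, since there were 4106 higher and 4165 lower without scaling and 4034 higher and 4208 lower with median-of-ratios scaling. Among large differences more genes were lower in TIN. At least 2-fold, 448 genes were higher in TIN (2.77%) and 1436 lower (8.89%). At least 4-fold, 66 were higher and 475 lower, and at least 16-fold, 5 were higher and 73 lower. Of those 73 genes, 24 are on the interferon or class I antigen presentation list. The median over all tested genes was 0.043. Counts of called members in the lists below are to be read against the shares of 27.6% higher and 24.1% lower.

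**Figure D1:**
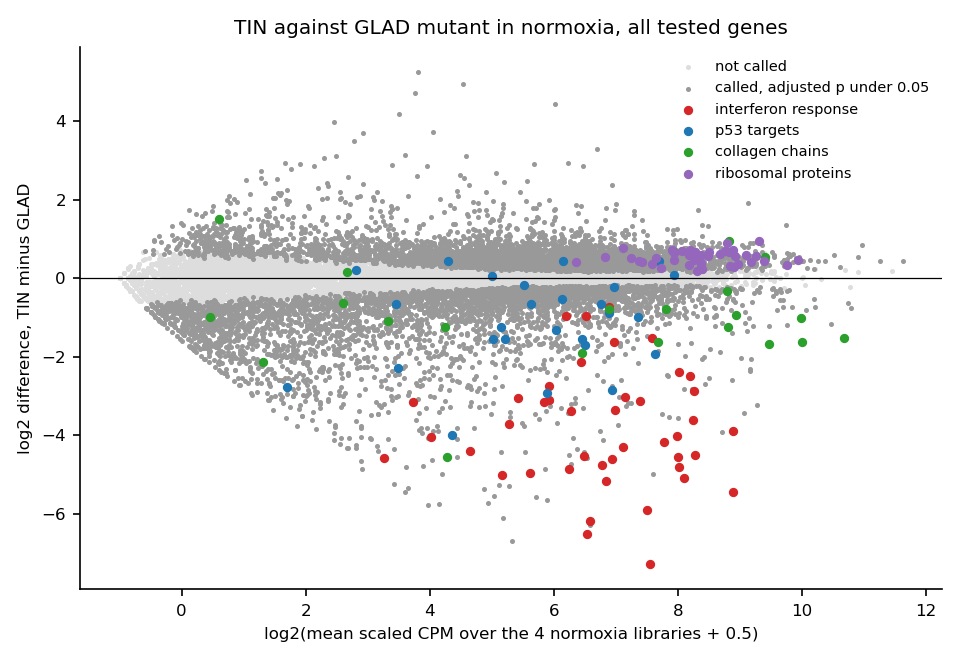
Each point is a gene, with its log2 mean level over the 4 normoxia libraries on the horizontal axis and its log2 difference TIN minus GLAD on the vertical axis; dark grey points passed an adjusted p of 0.05 and 4 gene lists are coloured. The interferon response genes reach from −0.74 to −7.28, whereas the ribosomal protein genes lie in a band above 0.

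Interferon-response genes were lower in TIN as a group. All 43 listed members passed the test in that direction, 40 of them at least 2-fold, with a median of −4.02 against 0.043 for all genes. The lowest was Oas2 (ENSMUSG00000032690, GRCm38 chromosome 5, 120730333 to 120749853), an oligoadenylate synthetase that senses double-stranded RNA. Oas2 stood at 366 and 378 CPM in GLAD and 2.05 and 1.74 CPM in TIN, a difference of −7.28 ± 0.082 (adjusted p = 5.5e-21). The double mutant, at 375 and 355 CPM, and the wild type, at 315 and 350.5 CPM, stood near the GLAD level and not near the TIN level. Oasl2, a related antiviral protein, was at 915 and 938 CPM in GLAD and 19.8 and 21.6 CPM in TIN (−5.45). Iigp1, a GTPase that disrupts the vacuoles of intracellular parasites, was at 180.2 and 185 against 1.25 and 1.79 CPM (−6.52). Trim30a, the first of the promoters printed above, was at 192 and 184 against 2.25 and 1.98 CPM (−6.17), and Oas1a at 219.5 and 224 against 5.70 and 5.71 CPM (−5.16). In each of these genes the TIN libraries lay far below the GLAD libraries.

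Irf7 and Usp18, which regulate the response, were also lower in TIN. Irf7, the transcription factor that amplifies interferon production, stood at 503 and 563 CPM in GLAD and 14.8 and 15.7 CPM in TIN (−5.08 ± 0.086, adjusted p = 1.4e-18). Usp18, a protease that removes ISG15 and damps receptor signalling, was at 266 and 263 against 12.5 and 13.7 CPM (−4.29 ± 0.071, adjusted p = 1.2e-18). Ifi44, an antiviral protein of infected cells, was at 366 and 345 against 6.05 and 4.96 CPM (−5.89). Zbp1, a sensor of Z-form nucleic acid that can start cell death, was at 46.0 and 49.0 against 2.35 and 1.34 CPM (−4.39). Several further members are named here after their values were seen, because they carry the signal itself. The transcription factor gene Stat2 stood at 535 and 546 CPM in GLAD and 78.2 and 68.4 CPM in TIN (−2.88), and its partner Irf9 at 185 and 194 against 61.2 and 60.5 CPM (−1.63). The ubiquitin-like protein Isg15 was at 424 and 405 against 21.4 and 23.5 CPM, and the translation inhibitor Ifit1 at 482 and 469.7 against 29.1 and 28.8 CPM. The cytosolic RNA sensors Ddx58, which encodes RIG-I, and Ifih1, which encodes MDA5, differed alike, Ddx58 at 434 and 439 against 84.1 and 81.5 CPM and Ifih1 at 104 and 101 against 11.2 and 11.1 CPM. The 3 members under 2-fold were Ifit2 at −0.97, Irf1 at −0.96 and Ifi27 at −0.74, also named after their values were seen.

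Genes upstream of the response did not share one direction, though more of them were lower in TIN. This set of 13 was chosen after the values were seen. By limma 8 were called lower, 4 of them at least 2-fold, and 3 higher, with a median of −0.66. Over all tested genes 24.1% were called lower and 27.6% higher. Members are given below as levels, and not all 13 are named. Ifnb1, which encodes interferon beta, was near the floor in both mutants, at 0.337 and 0.344 CPM in GLAD and 0 in both TIN libraries. The receptor subunit Ifnar1 was at 127 and 135 CPM in GLAD and 84.1 and 81.3 CPM in TIN, and Ifnar2 at 58.6 and 58.6 against 29.5 and 28.5 CPM. The receptor-bound kinase Jak1 was at 342 and 351 against 422 and 415 CPM and Tyk2 at 48.2 and 47.8 against 54.1 and 47.5 CPM. The DNA sensor Cgas was at 28.3 and 29.6 CPM in GLAD and 16.6 and 16.6 CPM in TIN, and its partner STING, listed as Tmem173, at 47.1 and 44.9 against 42.7 and 44.2 CPM. The adaptor Mavs stood at 35.1 and 38.5 CPM in GLAD and 61.8 and 54.8 CPM in TIN, and the transcription factor Irf3 at 38.2 and 36.5 against 55.4 and 48.5 CPM. The widest gaps in this set were in the endosomal RNA sensor Tlr3, at 53.5 and 46.5 CPM in GLAD and 4.60 and 4.86 CPM in TIN, and in the RNA editing enzyme Adar, at 381 and 398 against 68.1 and 69.3 CPM. Ifnar1, Ifnar2, Cgas, Tlr3 and Adar were lower in both TIN libraries, whereas Mavs, Irf3 and Jak1 were higher in both. Tlr3 and Adar can themselves be induced by interferon, and whether they come before or after the response was not tested.

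Class I antigen presentation followed the same direction. All 16 members were lower in TIN by at least 2-fold, with a median of −2.58. H2-K1, a classical heavy chain that shows peptides to T cells, stood at 449.8 and 498 CPM in GLAD and 37.4 and 41.7 CPM in TIN (−3.57 ± 0.084, adjusted p = 8.2e-17). Tap1, a subunit of the peptide transporter into the endoplasmic reticulum, was at 120.1 and 126 against 9.40 and 8.88 CPM (−3.68). The immunoproteasome subunits Psmb8 and Psmb9 were at −4.35 and −3.42. Nlrc5, the transactivator of class I genes, was at 26.6 and 26.8 against 1.75 and 1.14 CPM (−3.82), and the non-classical heavy chain H2-Q4 was at 165 and 178 against 7.50 and 7.54 CPM (−4.42). Levels of H2-K1 in the double mutant, 1200.0 and 1289 CPM, and in the wild type, 978 and 1129 CPM, were above both single mutants. Heavy-chain genes are near-copies of one another, so reads may have been divided among them.

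Secreted inflammatory signals were mostly lower too. Of 23 tested members of 28 listed, 20 were lower and 2 higher in TIN, with a median of −1.13. The T cell attractant Ccl5 stood at 88.5 and 101 CPM in GLAD and 8.25 and 8.19 CPM in TIN (−3.45), and the complement component C3 at 1068 and 1164 against 116 and 122 CPM (−3.22). Lcn2, an iron-binding acute-phase protein, was at 52.9 and 63.0 against 5.90 and 5.95 CPM (−3.18), with 757 and 783 CPM in the double mutant. The stromal chemokine Cxcl12 was at 930.1 and 935 against 217 and 231 CPM (−2.06), and the neutrophil attractant Cxcl5 at 492 and 469.8 against 63.3 and 72.2 CPM (−2.82). The pleiotropic cytokine Il6 was low in both mutants, at 2.12 and 1.47 CPM in GLAD and 0.650 and 0.745 CPM in TIN (−0.93 ± 0.19, adjusted p = 6.1e-04). The 2 members higher in TIN, named after their values were seen, were the cytokine Il11 at 1.98 and the prostaglandin synthase Ptgs2 at 1.56.

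**Figure D2:**
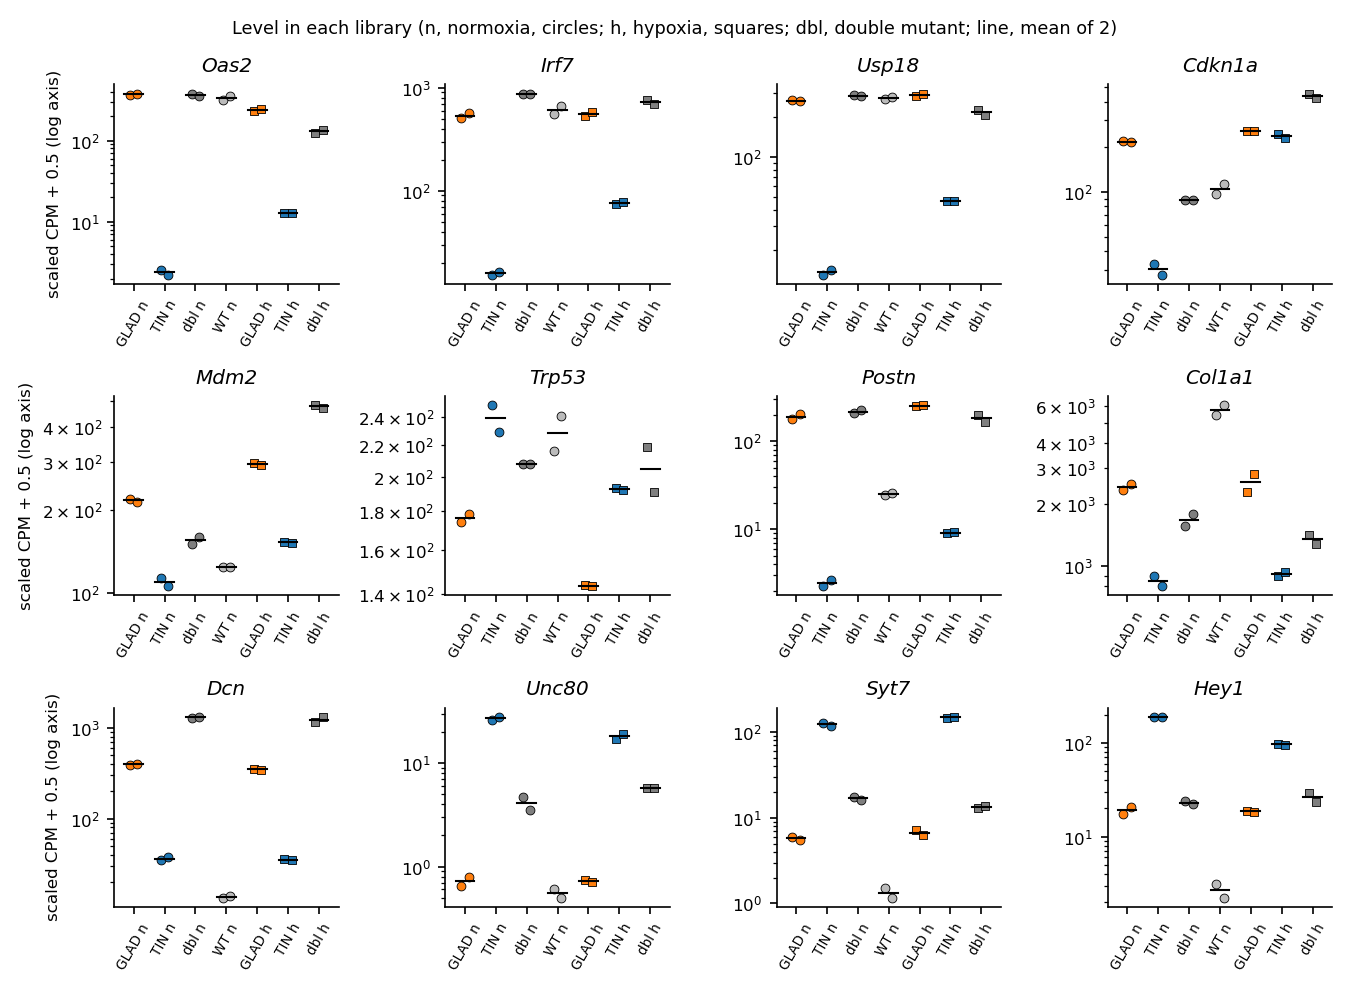
Scaled CPM plus 0.5, on a log axis, of 12 genes in all 14 libraries, 2 points for each group with the group mean as a line. Oas2, Irf7 and Usp18 are lowest, and Unc80 and Syt7 highest, in the 4 TIN libraries.

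Genes of the p53 pathway were mostly lower in TIN as well. The tumour suppressor p53 is a transcription factor that answers DNA damage, including damage at telomeres, by switching on genes of arrest and cell death. Of 26 listed genes, 19 were lower in TIN and 3 higher, with a median of −0.93 and 12 at least 2-fold lower. Cdkn1a (ENSMUSG00000023067, GRCm38 chromosome 17, 29090976 to 29100727), which encodes the cell-cycle inhibitor p21, stood at 217 and 214 CPM in GLAD and 32.4 and 27.4 CPM in TIN, a difference of −2.84 ± 0.085 (adjusted p = 2.7e-15). The double mutant, at 87.8 and 87.7 CPM, and the wild type, at 96.6 and 112 CPM, lay between the single mutants. Perp, a membrane protein of p53-dependent death, was at 38.2 and 37.9 against 1.45 and 2.53 CPM (−3.99). The p53 cofactor Trp53inp1 was at 108 and 100.5 against 13.1 and 13.7 CPM (−2.92), and Ccng1, which encodes cyclin G1, was at 319 and 309.8 against 81.2 and 82.4 CPM (−1.94). The death gene Pmaip1, encoding NOXA, and the receptor gene Eda2r were at −2.28 and −2.78. Mdm2, the ubiquitin ligase that p53 induces and that degrades it, was at 219.8 and 214 against 113 and 106 CPM (−0.99 ± 0.067, adjusted p = 6.1e-10).

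The transcript of p53 itself went the other way. Trp53 stood at 173 and 178 CPM in GLAD and 248 and 228 CPM in TIN (0.44 ± 0.078, adjusted p = 1.2e-04). The other 2 members higher in TIN, named after their values were seen, were the stress gene Sesn1 at 0.43 and the polo-like kinase Plk3 at 0.43. Cdkn2a, which encodes p16 and ARF, was at 229 and 246 CPM in GLAD and 252 and 248 CPM in TIN, a difference of 0.077 ± 0.075 (adjusted p = 0.41). For Cdkn2b, which encodes p15, the levels were 46.2 and 49.9 CPM in GLAD and 42.2 and 43.0 CPM in TIN (−0.17 ± 0.10, adjusted p = 0.18). Neither of those inhibitors passed the test.

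Matrix genes, the main secreted product of fibroblasts, were lower in TIN in most cases. Of 22 collagen chains, 17 were lower and 4 higher, with a median of −1.0. Col1a1, the main chain of type I collagen, stood at 2341 and 2513 CPM in GLAD and 901 and 801 CPM in TIN (−1.51 ± 0.10, adjusted p = 8.0e-10), and its partner Col1a2 at 1514 and 1586 against 518 and 485 CPM (−1.63). Both stood highest in the wild type, at 5469 and 6086 CPM for Col1a1 and 2856 and 2997 CPM for Col1a2. The cartilage-type fibril chain Col11a1 showed the widest gap of the list, 35.1 and 38.6 against 1.20 and 0.992 CPM (−4.55). Col5a2, which limits fibril width, was at −1.69, and the basement membrane chain Col4a5 at −1.90.

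Of 43 other matrix and remodelling genes, 32 were lower and 7 higher, with a median of −0.92. Postn (ENSMUSG00000027750, GRCm38 chromosome 3, 54361109 to 54391037), a matricellular protein of wound and tumour stroma, stood at 178 and 200.5 CPM in GLAD and 1.75 and 2.13 CPM in TIN (−6.28 ± 0.1, adjusted p = 6.1e-19). Its wild-type level of 23.7 and 25.2 CPM lay between the single mutants, while the double mutant had 208 and 224 CPM. Elastin, encoded by Eln, was at 15.3 and 18.1 against 0.450 and 0.199 CPM (−4.39). The small proteoglycans that space collagen fibrils were low as well, with Dcn at 389 and 401 against 34.1 and 37.0 CPM (−3.46), Lum at 29.4 and 28.5 against 1.20 and 1.34 CPM (−4.06) and Ogn at −3.30. In Dcn the TIN level was nonetheless above that of the wild type, 12.9 and 13.6 CPM. The tenascin Tnn was at 108 and 123 against 1.90 and 1.74 CPM (−5.64), and Serpine2, an inhibitor of matrix-bound proteases, at 373 and 375 against 11.0 and 11.7 CPM (−4.98 ± 0.077, adjusted p = 5.2e-19). The lipid-binding secreted protein Apod, the second lowest gene of all those named, was at 73.2 and 84.5 against 0.30 and 0.248 CPM (−6.68). The TIN levels of Apod and Eln are close to the floor, so their differences depend on the added 0.5 CPM.

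The contractile genes of myofibroblasts were divided. Of 18 tested, 9 were lower and 3 higher in TIN, though the higher count falls to 1 without GLAD library A or TIN library A. The myosin light chain Myl9 stood at 26.2 and 28.2 CPM in GLAD and 1.25 and 1.39 CPM in TIN (−3.93), the actin cross-linker Tagln at 68.9 and 67.8 against 16.8 and 15.1 CPM (−2.07), and smooth muscle actin, Acta2, at 164 and 170.1 against 100.2 and 90.4 CPM (−0.81 ± 0.13, adjusted p = 4.3e-05). Genes of TGF-beta signalling, which drives the myofibroblast state, and of BMP signalling were listed together. Of these 29 genes 13 were higher and 12 lower, with a median of 0.087. Among the ligands Tgfb2 was at −2.09 and the activin subunit Inhbb at −2.73, and the latent-complex protein Ltbp2 was at −2.0. The BMP antagonist Grem1 was higher, at 58.2 and 50.8 CPM in GLAD and 195 and 210.0 CPM in TIN (1.89), and so was the BMP target Id1 at 1.10.

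Markers of the fibroblast itself had 10 of 13 tested members lower and 2 higher. The higher members, named after their values were seen, were S100a4 at 0.31 and Fn1, fibronectin, at 0.44, and the count falls to 1 without GLAD library B or TIN library B. The cytoskeletal protein Vim was at 1760.0 and 1835 CPM in GLAD and 2047 and 1997 CPM in TIN and did not pass (0.17 ± 0.084, adjusted p = 9.8e-02). The mesenchymal factor Prrx1 was at −0.96 and the collagen-binding protein Sparc at −1.18. Summed over the list, levels were 11415 and 11840.2 CPM in GLAD and 8335 and 8259 CPM in TIN. In bulk RNA, fewer cells of a kind and less RNA per cell cannot be told apart. Markers of other cell types were checked in the same libraries. Of 12 epithelial markers 8 were at or under the floor in all 4 libraries, as were 4 of 9 endothelial, 5 of 11 myeloid and lymphoid, and 9 of 12 skeletal muscle markers. The summed level of the myeloid and lymphoid list was 44.4 and 44.0 CPM in GLAD and 35.4 and 32.9 CPM in TIN, and the leukocyte antigen Ptprc was at 0 in all 4. The endothelial sum was 18.5 and 18.6 CPM in GLAD and 7.55 and 7.29 CPM in TIN, with the receptor Tek giving most of it in GLAD and the defining marker Cdh5 at 0. The adipocyte sum was 69.7 and 73.2 CPM in GLAD and 32.2 and 32.3 CPM in TIN, most of it in GLAD from the fatty acid carrier Fabp4, at 58.5 and 59.4 against 12.3 and 13.3 CPM (−2.16), with the defining marker Adipoq at 0. The chondrocyte and bone sum was 69.5 and 74.1 CPM in GLAD and 105 and 94.0 CPM in TIN, most of it from the bone factor Runx2. The neural and glial sum was 442 and 429 CPM in GLAD and 362 and 365 CPM in TIN, most of it from the microtubule protein Map2, with 3 of 11 markers at or under the floor. Their part in the differences above was not tested.

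Signals that pattern and feed the mesenchyme differed in both directions. Of 33 growth factors and receptors, 22 were lower and 8 higher in TIN. Of the insulin-like growth factors, Igf2 was at 17.0 and 16.7 CPM in GLAD and 1.90 and 2.13 CPM in TIN (−2.79) and Igf1 at 32.5 and 32.1 against 6.25 and 4.71 CPM (−2.47). The binding proteins that carry these hormones split, Igfbp2 standing at −4.63 and Igfbp3 at −3.38, but Igfbp6 at 2.46, from 11.1 and 10.6 CPM in GLAD to 60.8 and 62.7 CPM in TIN. The mitogen Fgf2 was higher, at 15.6 and 14.9 against 72.8 and 69.5 CPM (2.18).

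Notch and Wnt genes had 17 lower and 4 higher of 30, with a median of −0.70. The secreted Wnt antagonists Sfrp2 and Sfrp1 were at −4.12 and −2.65, and the Wnt enhancers Rspo1 and Rspo2 at −3.81 and −3.29. Against them stood the Notch target Hey1, a repressor of the bHLH family, at 17.1 and 20.4 CPM in GLAD and 187 and 189.8 CPM in TIN (3.30 ± 0.14, adjusted p = 5.9e-13), and the ligand Wnt4 at 2.77. In the wild type Sfrp2 was at 17.0 and 17.0 CPM, near TIN (11.3 and 11.8) and far below GLAD (206 and 212). Sfrp1 was there at 33.15 and 31.6 CPM, near GLAD (36.1 and 39.5) and above TIN (5.60 and 5.56). Patterning transcription factors had 16 lower and 10 higher of 41, the latter near the 27.6% called higher over all genes. Osr2, a factor of limb and palate mesenchyme, was at −2.79 and the homeobox factor Msx2 at −2.15, whereas Foxc2 was at 1.47 and Twist2 at 1.47. The Hox genes, which keep the positional code of the tissue of origin, had few calls, with 3 higher and 2 lower of 16 tested (1 lower without TIN library B) and a range from −0.80 for Hoxa13 to 0.51 for Hoxd13.

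**Figure D3:**
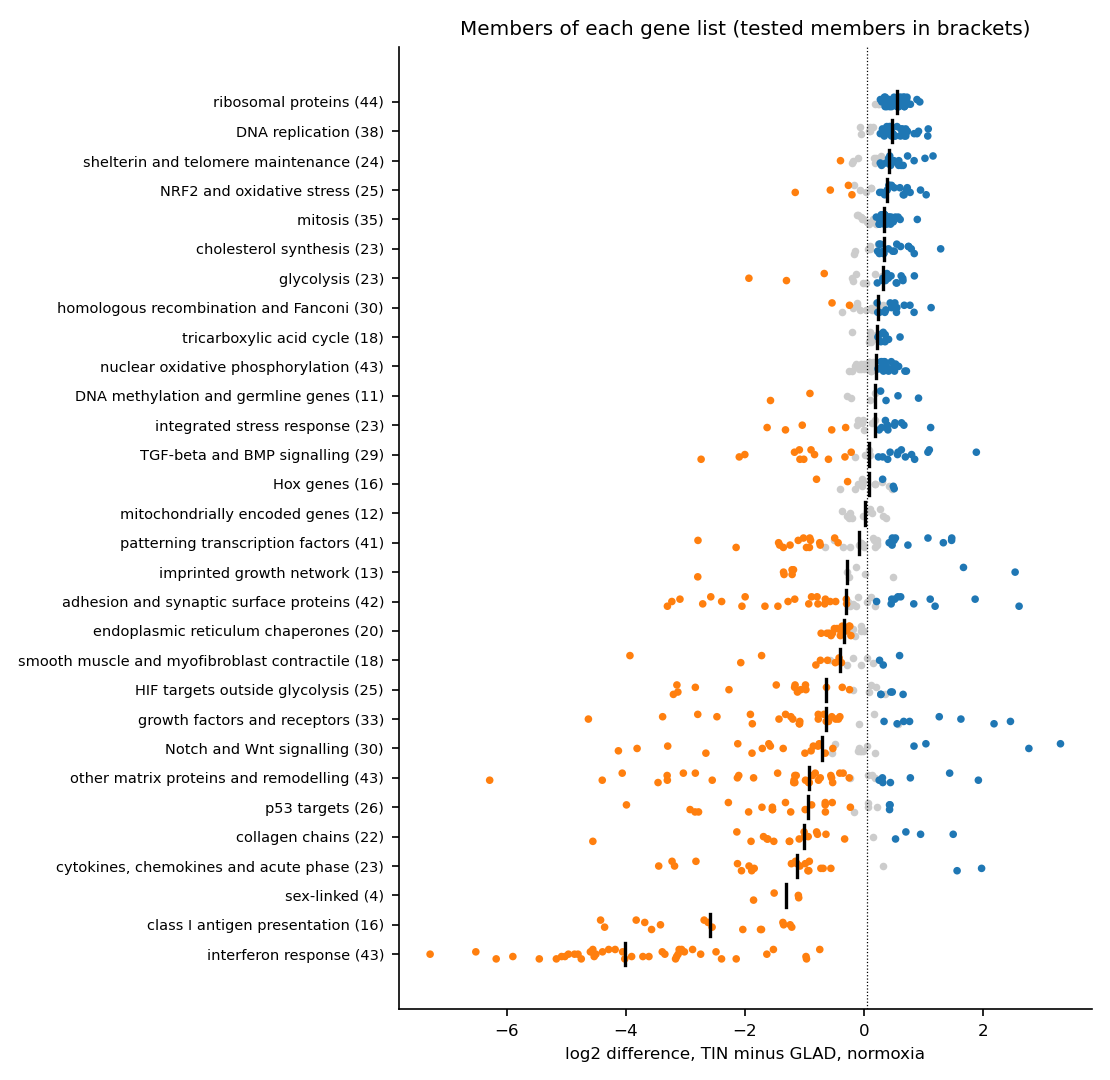
Log2 difference TIN minus GLAD in normoxia of the tested members of 30 gene lists, ordered by median (black bar); orange points were called lower in TIN, blue points higher, grey points were not called, and the dotted line is the median of all genes. The interferon list lies lowest, at a median of −4.02, and the ribosomal protein list highest, at 0.55.

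The genes with the largest differences towards TIN come from the 66 that were at least 4-fold higher. Unc80 (ENSMUSG00000055567, GRCm38 chromosome 1, 66468367 to 66699148), a subunit of the sodium leak channel, stood at 0.144 and 0.295 CPM in GLAD and 25.9 and 27.9 CPM in TIN (5.26 ± 0.20, adjusted p = 8.9e-14). The GLAD values are close to the floors of 0.202 and 0.200 CPM, so that difference depends on the added 0.5 CPM. The orphan receptor Gpr149 was at 1.06 and 0.884 against 42.2 and 46.5 CPM (4.93), and Syt7, a calcium sensor of vesicle fusion, at 5.49 and 5.05 against 128 and 119 CPM (4.42 ± 0.13, adjusted p = 2.7e-15). Wild-type cells had 0.101 and 0 CPM of Unc80 and 1.01 and 0.667 CPM of Syt7, while the double mutant had 4.20 and 3.05 CPM of Unc80 and 17.1 and 15.6 CPM of Syt7. Chst1, a keratan sulfate sulfotransferase, was at 0.866 and 0.540 against 22.2 and 19.6 CPM (4.17), and the secretory granule protein Ptprn at 0.530 and 0.687 against 12.9 and 11.2 CPM (3.50). The G protein regulators Rgs16 and Rgs17 were at 3.73 and 2.89, and the adhesion protein Alcam at 16.4 and 17.6 against 130.5 and 135 CPM (2.93). Among the listed neural and glial markers, the stem cell factor Sox2 was at 7.22 and 7.02 against 36.9 and 33.3 CPM (2.22), the tubulin Tubb3 at 4.24 and 4.32 against 19.8 and 20.1 CPM (2.10), and the intermediate filament Nes at 30.5 and 29.7 against 69.4 and 70.3 CPM (1.20). That list as a whole had 3 higher and 3 lower of 8, with the lower sum in TIN given above.

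Switch-like differences ran in 1 direction. Genes with at most 3 reads in each TIN library and at least 10 CPM in each GLAD library numbered 14, and the reverse pattern was met by 0 genes. Gm4951, an interferon-inducible GTPase gene, had 1050 recovered reads in GLAD and 3 in TIN, a ratio of levels of 313 with an exact 95% interval from 107 to 1522 that covers counting error only. Trim30d, a relative of Trim30a, had 933 reads against 2, a ratio of 418 (115 to 3455). Ppl, which encodes the desmosomal linker periplakin, had 732 against 2, a ratio of 328 (90.4 to 2711). Phf11b had 427 reads in GLAD and 0 in TIN, so it was at least 56.9-fold higher in GLAD against a floor of 3 reads per library. The glutamate receptor gene Gria3 had 712 reads against 1, and the nuclear body gene Sp110 425 against 2. Gria3 was also low in the wild type, at 0.353 and 0.41 CPM, and in the double mutant, at 0.196 and 0.20 CPM. Gm4951, in contrast, stood at 27.0 and 20.5 CPM in the wild type and 23.3 and 22.2 CPM in the double mutant. Trim30d stood at 17.8 and 15.4 CPM in the wild type and 25.6 and 23.7 CPM in the double mutant.

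Genes of growth and division were slightly but broadly higher in TIN. Of 44 ribosomal protein genes 41 were higher and 3 were not called, with a median of 0.55. Rps2, of the small subunit, stood at 435 and 432 CPM in GLAD and 825 and 837 CPM in TIN (0.94 ± 0.081, adjusted p = 2.1e-08), and Rpl12, of the large subunit, at 314 and 308 against 534 and 624 CPM (0.89). These genes have many pseudogene copies, which can share their reads. Of 38 DNA replication genes 32 were higher and 6 were not called, with a median of 0.47. The replicative helicase subunit Mcm5 was at 212 and 220.3 against 456 and 458 CPM (1.08 ± 0.074, adjusted p = 8.0e-10), and Gins1, which joins that helicase, at 13.7 and 15.3 against 30.4 and 31.6 CPM (1.07). The licensing factor Cdc6 was at 0.73, and Uhrf1, which guides maintenance methylation behind the fork, at 0.92.

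Of 35 mitosis genes 25 were higher and 10 were not called, with a median of 0.34, led by the proliferation antigen Mki67 at 411 and 419 CPM in GLAD and 777 and 769 CPM in TIN (0.90 ± 0.11, adjusted p = 2.5e-06). The checkpoint kinases Bub1 and Bub1b were at 0.61 and 0.53. Of 30 homologous recombination and Fanconi genes, 15 were higher and 2 lower, a count that falls to 1 with any of the 4 libraries left out. Bard1, the partner of BRCA1, was at 20.7 and 21.2 against 47.4 and 45.4 CPM (1.13), the resecting nuclease Exo1 at 0.84, and Brca1 itself at 0.55. The differences in Mcm5, Mki67 and Bard1 were each near or under 2-fold.

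Telomere genes leaned upward in TIN. Of 24 tested, 16 were higher and 1 lower, with a median of 0.42. The largest differences were in the RNA-protein core of telomerase. Nhp2 stood at 31.6 and 31.2 CPM in GLAD and 73.2 and 68.5 CPM in TIN (1.16 ± 0.12, adjusted p = 1.3e-07), Nop10 at 18.7 and 20.1 against 36.3 and 43.9 CPM (1.02), and the pseudouridine synthase Dkc1 at 57.1 and 52.5 against 102 and 95 CPM (0.84). These proteins also serve ribosomal RNA modification. The telomerase reverse transcriptase gene Tert was near the floor, at 0.144 and 0.295 CPM in GLAD and 0.10 and 0 CPM in TIN, and was not tested. Among shelterin subunits the single-strand binding protein Pot1b was at 0.73, and Rtel1, a helicase that unwinds telomere loops, was at 0.66. Tinf2, which encodes the TRF1 partner TIN2 and is named after its value was seen, was at 30.6 and 30.8 against 49.3 and 43.6 CPM (0.59). The single member lower in TIN, also named after its value was seen, was the histone chaperone Daxx at −0.39. Without scaling, or with median-of-ratios scaling, 2 members were called lower.

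Metabolic lists differed modestly. Glycolysis had 13 higher and 3 lower of 23, with a median of 0.32. Lactate dehydrogenase A, Ldha, stood at 494 and 528 CPM in GLAD and 800.1 and 809 CPM in TIN (0.66 ± 0.078, adjusted p = 1.3e-06), and the hexokinase Hk2 at 22.7 and 23.8 against 39.4 and 34.2 CPM (0.65 ± 0.094, adjusted p = 1.3e-05). The glucose transporter Slc2a1 was at 84.9 and 90.9 against 107 and 98.5 CPM (0.22 ± 0.073, adjusted p = 1.5e-02), a call lost without GLAD library A (adjusted p = 0.14) or TIN library A (0.16). Lower in TIN were Ldhb at −1.93, the regulatory kinase Pfkfb3 at −1.30 and the lactate exporter Slc16a3 at −0.67. Targets of the hypoxia-inducible factor outside glycolysis leaned down even at atmospheric oxygen, with 15 lower and 5 higher of 25. The vasodilator peptide Adm was at 17.6 and 16.1 CPM in GLAD and 1.55 and 1.24 CPM in TIN (−3.20), the carbonic anhydrase Car9 at 33.3 and 33.9 against 3.55 and 3.27 CPM (−3.12), and Stc1 at 8.71 and 7.16 against 0.800 and 0.199 CPM (−3.14). Vegfa, the angiogenic factor, was slightly higher in TIN, at 34.7 and 36.3 against 43.8 and 42.9 CPM (0.29 ± 0.071, adjusted p = 2.4e-03).

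Of 23 cholesterol synthesis genes 17 were higher in TIN and 6 were not called, led by the sterol oxidase Msmo1 at 43.4 and 38.6 against 99.5 and 102 CPM (1.29). Nuclear oxidative phosphorylation genes had 20 of 43 higher, which falls to 13 without GLAD library A or without TIN library B. Of 12 mitochondrially encoded genes limma called 0, and 0 reached an unadjusted p of 0.05. The TIN libraries differed there, with mt-Nd1, a subunit of complex I, at 1206 and 698 CPM in A and B against 742 and 683 CPM in GLAD. Without TIN library A the list's median was −0.383 and 3 members were called lower, and without TIN library B 2 were called higher. Antioxidant targets of NRF2 had 16 higher and 4 lower of 25 (2 lower without GLAD library B or TIN library A), among them the quinone reductase Nqo1 at 1.05 and the glutathione synthesis enzyme Gclc at 0.95. Chaperones of the endoplasmic reticulum were lower in 15 of 20 cases, all of them by less than 2-fold, and in 9 without TIN library A. The stress response through ATF4 was mixed, with 11 higher and 5 lower of 23, the latter near the 24.1% called lower over all genes. In it the stress factors Atf3 and Ddit3 were at −1.63 and −1.04, and the serine synthesis enzyme Psat1 at 1.12.

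The 4 libraries of each oxygen condition share no library with the other, so the hypoxia comparison of the same mutants rests on separate samples. Both comparisons use 1 estimate of the spread from all 14 libraries. An effect of a line of cells could also recur in both. In hypoxia 10193 genes were called, 63.1% of those tested, with 5010 higher in TIN (31.0%) and 5183 lower (32.1%). At least 2-fold, 761 were higher (4.71%) and 1651 lower (10.2%). Of the normoxia calls, 66.7% were called the same way in hypoxia, as were 54.7% of the hypoxia calls in normoxia. In detail, 2849 genes were higher and 2725 lower in both, against 389 and 146 that were called in opposite directions. Across genes, which are not independent, the differences had a Pearson r of 0.736 and a Spearman rho of 0.637. Of the 1436 genes at least 2-fold lower in normoxia, 1255 were called lower in hypoxia, and of the 448 at least 2-fold higher, 346 were called higher.

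**Figure D4:**
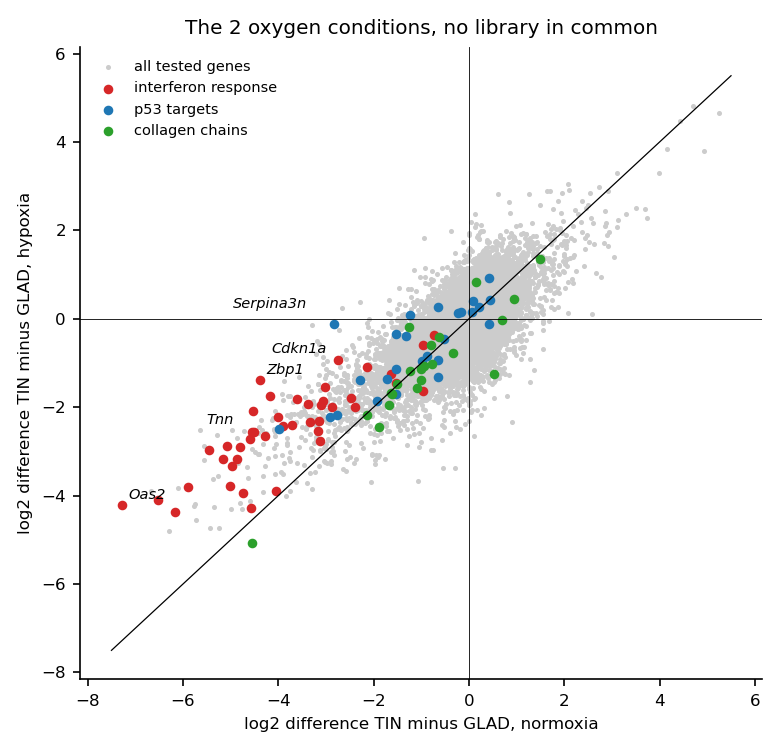
Log2 difference TIN minus GLAD of each tested gene in normoxia (horizontal) and in hypoxia (vertical), with 3 lists coloured, 5 genes named and the line of equal values. Most interferon genes lie above the line on the left, lower in TIN at both oxygen levels but by less in hypoxia. Oas2, for example, is at −7.28 and −4.21. Most of the collagen chains lie near the line.

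Whether a difference depended on oxygen was tested directly, as the hypoxia difference minus the normoxia difference. That contrast called 5472 genes, or 33.9%, with 2644 raised in hypoxia (16.4%) and 2828 lowered (17.5%). By at least 2-fold, 572 were raised (3.54%) and 643 lowered (3.98%). The count fell well below 5472 when library A or B of 1 mutant was left out in normoxia and hypoxia together. Leaving out 1 library alone was not tried for this contrast. In the interferon list 38 members were raised and 1 lowered, with medians of −4.02 in normoxia and −2.39 in hypoxia, and all 43 were called lower in TIN in hypoxia as well. Oas2 stood at 232 and 242 CPM in GLAD and 12.2 and 12.4 CPM in TIN in hypoxia, so the gap narrowed by 3.07 ± 0.12 (adjusted p = 1.3e-11). Zbp1 was at 46.0 and 44.6 against 16.4 and 17.8 CPM, narrower by 3.01 ± 0.21 (adjusted p = 1.5e-08), and the matrix gene Tnn at 169.8 and 193 against 29.1 and 33.8 CPM, narrower by 3.13 ± 0.15 (adjusted p = 1.6e-10). The acute-phase inhibitor Serpina3n was at 9.39 and 11.0 CPM in GLAD and 0.700 and 0.496 CPM in TIN in normoxia, but at 6.99 and 7.50 CPM in GLAD and 7.53 and 5.75 CPM in TIN in hypoxia, a change of 3.16 ± 0.24 (adjusted p = 4.8e-08). Galnt9, a glycosyltransferase, changed by 2.91 ± 0.34 (adjusted p = 9.9e-06).

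The difference in Cdkn1a was not called in hypoxia. Its levels there were 254 and 255 CPM in GLAD and 244 and 228 CPM in TIN, with a difference of −0.11 ± 0.085 (adjusted p = 0.28) and a change of 2.73 ± 0.12 (adjusted p = 9.3e-11). Mdm2 was still lower in TIN, at 296 and 292 against 153 and 152 CPM (−0.94), and its contrast between oxygen levels was 0.043 ± 0.094 (adjusted p = 0.75). Over the p53 list 13 members were raised and 3 lowered, with medians of −0.93 and −0.42. Collagen chains had a median of −1.0 in normoxia and −1.16 in hypoxia. Of 22 chains 17 had no call for a dependence on oxygen, against 10685 of 16157 over all genes, a similar share. In that contrast the chains ranged from −1.78 to 1.06. Col1a1 was at 2303 and 2818 against 895 and 935 CPM in hypoxia (−1.48 ± 0.10). The secreted protein Fam19a2 turned around, from 0.91 ± 0.27 in normoxia to −2.34 ± 0.27 in hypoxia (−3.25 ± 0.39, adjusted p = 1.1e-05), though its normoxia call is lost without GLAD library A (adjusted p = 0.077) or TIN library B (0.13).

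By position, the tested genes of chromosomes 2 and 17 lay above the rest and those of Y below. The 1251 genes of chromosome 2 had a median of 0.297, with 595 higher and 162 lower in TIN, or 60.5% called. The 755 genes of chromosome 17 had a median of 0.276, with 346 higher and 121 lower, or 61.9% called. In hypoxia those medians were 0.236 and 0.329. Chromosome 8 followed closely at 0.272, so no boundary separates the named chromosomes from the next. The lowest autosome was 18, at −0.195 in normoxia and −0.386 in hypoxia. The 8 tested genes of chromosome Y had a median of −1.10, with 5 lower and 3 higher. The RNA helicase gene Ddx3y stood at 61.5 and 60.1 CPM in GLAD and 14.4 and 18.8 CPM in TIN (−1.85), Uty at 29.1 and 23.8 against 8.85 and 9.03 CPM (−1.51), the demethylase Kdm5d at −1.10 and the translation factor gene Eif2s3y at −1.09. Xist, the RNA of the inactive X, had at most 7 reads in any of the 14 libraries and was not tested.

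**Figure D5:**
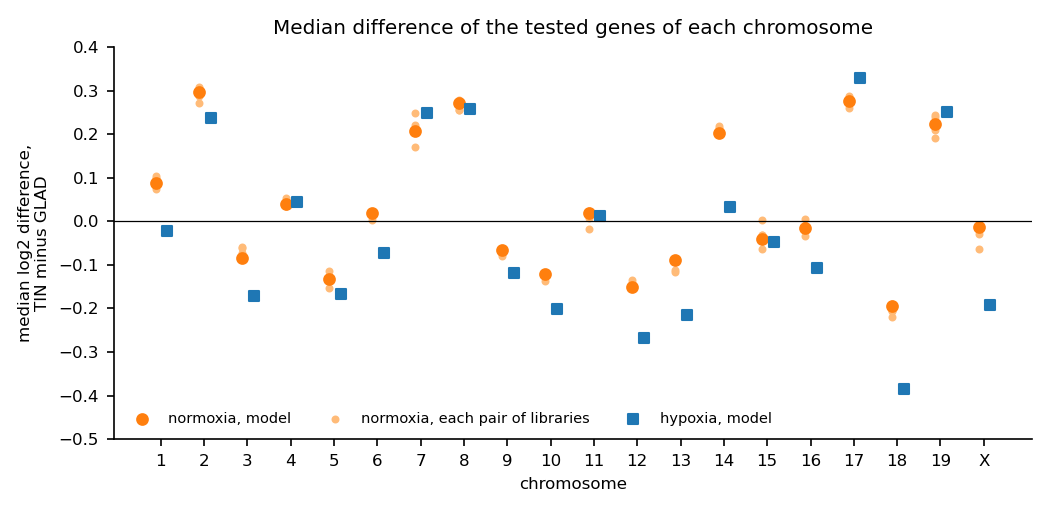
Median log2 difference TIN minus GLAD of the tested genes on each autosome and X, for normoxia from the model (large orange circles), for each of the 4 pairs of a TIN and a GLAD library (small circles) and for hypoxia from the model (blue squares); chromosome Y, at −1.10 with 8 genes, is not drawn. Chromosome 2 stands at 0.297 and chromosome 18 at −0.195 in normoxia, and the 4 pairs stay close to the model.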

How the data were processed

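RNA sequencing values were taken from 1 table of 52636 genes by 14 libraries. The deposited values are CPM computed by the authors. STAR, HTSeq and the builds GRCm38.p4 and mm10 are named in the submitters' processing notes. Versions, the strand setting and the annotation release are not given in the sources used here, so antisense and overlapping genes may share reads. Values fell on steps of about 0.05 CPM that fitted a read count times a library factor, rounded up, for 99.05% to 99.91% of low values, which gave the depth of each library, 11916999 to 15023557 reads, and the recovered reads printed for single genes.

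Here CPM were scaled by trimmed means of M values (30% of log ratios and 5% of levels trimmed), 0.5 CPM was added, and log2 values were fitted with limma 3.58.1 in R 4.3.3, with 7 group means over 14 libraries, 7 residual degrees of freedom and a trend on level. Benjamini-Hochberg adjustment ran over all 16157 tested genes of a comparison. Data were simulated for the TIN and GLAD normoxia comparison over 16157 genes, with the same assumed spread for every gene. In them 100 genes changed 1.5-fold and 100 changed 2-fold, all with a mean of at least 5 CPM, and the rest did not change. Of these changes, 95% of 1.5-fold and 99% of 2-fold were recovered. Recovery in lower genes, or with as many genes differing as were called here, was not simulated. Symbols and positions came from GENCODE M21 on GRCm38 and matched 52489 genes; all 976 list entries were matched, some through RefSeq synonyms. There were 30 gene lists and 8 marker lists. Named genes are the 15 highest and 15 lowest called genes with a mean of at least 5 CPM, up to 6 called members of each list, 14 fixed genes, the on and off genes, the 6 largest dependences on oxygen and the 6 smallest p-values. The members and lists were chosen with earlier results of these data known. The wild-type columns carry the word mouse in their names and were assigned by their titles, so levels given for wild type rest on the titles. One item of the lists is not reported here by name. The alternatives tried are given in the closing section.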

Additional observations from a re-analysis of the deposited data

Results flagged for a closer look

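Each result below is a TIN minus GLAD difference that changed between normoxia and hypoxia by a test of the change itself in limma, given as the hypoxia difference minus the normoxia difference on the log2 scale. In all, 5472 genes had such a change. Among named genes Fam19a2, a secreted protein, had −3.25, and the acute-phase inhibitor Serpina3n 3.16. The matrix gene Tnn changed by 3.13, the antiviral enzyme gene Oas2 by 3.07, the nucleic acid sensor Zbp1 by 3.01 and the glycosyltransferase Galnt9 by 2.91. The cell-cycle inhibitor Cdkn1a changed by 2.73, smooth muscle actin Acta2 by 0.86, the cytokine Il6 by 0.81 and Cdkn2a by 0.33. Below 0 were the hexokinase Hk2 at −0.70 and the angiogenic factor Vegfa at −0.29.

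Among the lists, the number of members with a changed difference was 39 of 43 for the interferon response, 15 of 16 for class I antigen presentation and 15 of 23 for cytokines. It was 16 of 26 for the p53 list, 18 of 29 for TGF-beta and BMP signalling and 18 of 25 for HIF targets outside glycolysis. For nuclear oxidative phosphorylation it was 27 of 43, for mitochondrially encoded genes 9 of 12 and for mitosis 25 of 35. Over all genes the share was 33.9%.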

How the results depend on the processing

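In normoxia 8356 genes were called. With 0.1 or 2 CPM added before log2 the count was 8289 or 8335, with no filter on low values 7986, with a filter at 5 CPM 7356, without scaling 8271 and with median-of-ratios scaling 8242. It was 8932 with trends on gene length and GC content removed, 9497 with the compared groups alone and 9421 without the wild-type libraries, an alternative chosen after seeing the data. Leaving out each library in turn gave 6697 to 6905, on the assumption that the lone library varies like the other groups. Deviations of libraries that share a letter had r = 0.03 for GLAD and TIN in normoxia and from −0.1 to 0.16 over all pairs of groups, the highest for GLAD in normoxia and hypoxia. A letter was therefore not taken to pair libraries, and a fit with the replicate block called 8433 genes in normoxia, 10256 in hypoxia and 5633 for the dependence on oxygen, and 8975 in normoxia with length and GC trends removed as well.

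Counts of 2-fold differences depended on the added value. With 2 CPM they were 262 higher and 940 lower in normoxia, 445 higher and 1056 lower in hypoxia, and 254 raised and 347 lowered for the dependence on oxygen. Leaving out a library took the 5472 genes that depend on oxygen to between 2648 and 2995. Of 3525 values of named genes under the alternatives, 3485 kept direction and call, 40 lost the call and none reversed. Of list counts 1089 stayed within 1.5 times and 51 did not, most of them counts of 5 or fewer. Of 569 list medians 106 moved by more than the spread between libraries. Some changed sign, such as that of the mitochondrially encoded genes and, with the filter at 5 CPM, of the chondrocyte and bone markers (−0.648 to 0.477) and the neural and glial markers (−0.131 to 1.65).

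The planned count-based tests, edgeR and DESeq2, were not run, because the deposited values are rounded steps and not whole multiples of what 1 read is worth. With 2 libraries a group, unequal gaps between A and B weigh heavily, and levels under about 0.25 CPM cannot be told from 0.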

Other observations

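Small nucleolar RNA genes, whose products guide the modification of ribosomal RNA, had 67 of 97 called higher in TIN in normoxia by limma, the rest not called, with a median of 0.838 and a median of 0.659 in hypoxia. Many of these genes lie in introns of ribosomal protein genes. Processed pseudogenes had 97 higher and 16 lower of 403, while protein-coding genes had 3860 higher and 3458 lower of 13127. Imprinted growth genes were spread widely, with 2 higher and 6 lower of 13 tested. Snrpn, a splicing protein gene expressed from the paternal copy, stood at 0.144 and 0.295 CPM in GLAD and 3.80 and 3.52 CPM in TIN (2.54), and the retrotransposon-derived gene Peg10 at 38.4 and 40.5 against 129 and 125 CPM (1.67). The long non-coding RNA H19, which neighbours Igf2, was at 2.79 and 2.90 against 0.899 and 0.745 CPM (−1.34).

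Differences followed gene length more closely in hypoxia than in normoxia. Across 16126 genes, which are not independent, Spearman's rho of the difference with exonic length was −0.038 in normoxia, −0.275 in hypoxia and −0.312 for the dependence on oxygen, and with GC content, over 16117 genes, −0.006, 0.198 and 0.261. With length and GC trends removed, 5078 genes depended on oxygen in place of 5472, with 489 raised and 531 lowered at least 2-fold in place of 572 and 643.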
